A study of Mus musculus with 15 samples.

Results

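Macrophage and other leukocyte marker genes were followed through RNA sequencing libraries of sorted mouse heart nuclei. The list holds 34 genes, chosen by symbol, each with at least 30 reads in total in a deposited table of 55536 genes. All 34 reached that total, and 32 of them had enough reads to enter the test across all genes, while the B cell genes Cd79a and Ms4a1 did not. In short, most of the 34 genes were several-fold higher in 6 of the 15 libraries, the same 6 in which the endothelial gene Pecam1 was high. None of the 32 tested members passed the threshold between genotype labels or between sexes.

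The nuclei came from mouse ventricular muscle and were sorted for Pcm1, a centriolar satellite protein that marks cardiomyocyte nuclei, and RNA freed of ribosomal RNA was read with a directional kit. The labels name 2 strains, Pgr_KO and Pgr_WT, that is, knockout and wild type for Pgr, the progesterone receptor gene, and both sexes. There are 4 female and 4 male libraries labelled knockout, and 3 female and 4 male libraries labelled wild type. In the tissue label of all 15 stand a 3 and a 6 with no unit, and no treatment or strain background is named. No label says that replicates are separate animals, so a p-value measures the spread between these libraries, which may be technical. What the knockout allele removes is not described by the labels.

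Resident macrophages are the most numerous leukocytes of the healthy heart. They lie between cardiomyocytes, vessels and fibroblasts, clear dead cells and debris, and depend on signalling through the receptor Csf1r. They make the C1q proteins that start the classical complement cascade, and a share of them shows MHC class II molecules that present peptides to T cells. A nuclear sort for cardiomyocytes should leave most such nuclei out, so these genes bear on what else entered each library. In bulk RNA, fewer cells of a type and less RNA per cell cannot be told apart.

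Promoter letters are shown for members of the C1q and MHC class II sets, because the genes of each set were high and low in the same libraries, and for Fcer1g, which hardly differed. Each run holds the 250 bases before a transcription start in RefSeq (GRCm38.p6), read 5′ to 3′ on the strand of the gene. They lie at chr4:136886201-136886450 and chr4:136892915-136893164 for C1qb and C1qc, at chr17:34287824-34288073 and chr17:34305617-34305866 for H2-Aa and H2-Eb1, and at chr1:171234350-171234599 for Fcer1g. The H2-Eb1 run is on the plus strand and the other 4 are on the minus strand. Capitals mark GAGGAA, the core bound by the macrophage factor PU.1, TGTGGT, the core bound by RUNX proteins, and ATTGG, the inverted CCAAT box, each searched on both strands. On the other strand they read TTCCTC for the first, ACCACA for the second and CCAAT for the third.
C1qb: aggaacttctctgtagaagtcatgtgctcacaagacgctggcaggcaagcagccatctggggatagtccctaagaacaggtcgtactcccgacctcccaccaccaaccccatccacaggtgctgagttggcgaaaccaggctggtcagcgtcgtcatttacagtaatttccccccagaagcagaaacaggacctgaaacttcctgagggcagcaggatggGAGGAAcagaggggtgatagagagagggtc
C1qc: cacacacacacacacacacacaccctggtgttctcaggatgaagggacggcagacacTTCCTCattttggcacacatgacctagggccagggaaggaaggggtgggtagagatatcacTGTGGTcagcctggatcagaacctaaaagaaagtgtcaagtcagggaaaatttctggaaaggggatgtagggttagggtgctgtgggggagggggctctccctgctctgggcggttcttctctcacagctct
H2-Aa: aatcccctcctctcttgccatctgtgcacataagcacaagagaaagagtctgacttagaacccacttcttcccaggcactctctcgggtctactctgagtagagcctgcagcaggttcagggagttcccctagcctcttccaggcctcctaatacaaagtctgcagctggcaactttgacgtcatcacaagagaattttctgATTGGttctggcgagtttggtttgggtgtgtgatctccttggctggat
H2-Eb1: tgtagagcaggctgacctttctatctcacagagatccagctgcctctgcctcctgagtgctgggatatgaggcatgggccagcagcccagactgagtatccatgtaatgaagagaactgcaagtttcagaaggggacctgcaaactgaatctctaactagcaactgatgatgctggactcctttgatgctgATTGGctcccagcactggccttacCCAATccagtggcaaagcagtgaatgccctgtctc
Fcer1g: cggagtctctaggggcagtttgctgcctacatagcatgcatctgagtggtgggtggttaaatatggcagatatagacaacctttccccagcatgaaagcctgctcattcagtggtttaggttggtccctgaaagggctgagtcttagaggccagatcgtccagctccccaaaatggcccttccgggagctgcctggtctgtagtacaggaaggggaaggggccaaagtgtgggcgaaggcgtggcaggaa
GAGGAA stands once in the runs of C1qb and C1qc, TGTGGT once in that of C1qc, and ATTGG once in that of H2-Aa and in 2 places in that of H2-Eb1. None of the 3 motifs stands in these 250 bases of Fcer1g. Over the longer windows of the RefSeq table, which add 50 bases after the start, 24 members had 31 promoters to search. In these windows TGTGGT does stand in Fcer1g. None of the 3 motifs stands in those of Lcp1 and Mertk, members that did differ with Pecam1. GAGGAA was in 15 of the 31, or 48.4%, against 28.3% of all 32851 promoters. TGTGGT was in 16.1% of the members' promoters against 16.8% of all, and ATTGG in 35.5% against 37.4%. These matches describe the letters and no binding was measured.

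Total counts per library ranged from 24.4 to 139 M with a median of 49.9 M, and 3 counts in a library equal 0.0219 to 0.117 CPM (counts per M counts). Levels below are CPM on library sizes scaled with TMM, a trimmed mean of ratios between libraries. Cardiomyocyte genes were high in every library, Myh6 at 2963 to 6288 CPM and Ttn at 23125 to 41846 CPM, so the labelled cell type was present throughout. Pgr read 6.10 to 12.5 CPM in the 8 libraries labelled knockout and 0 to 0.267 CPM in the 7 labelled wild type, which runs against the labels in all 15, and directions are therefore given by label alone. Reads of genes specific to the other sex made up 3.07 to 3.50% of that sex's mean level in 3 libraries, replicate 2 of the knockout-label females and of both wild-type-label groups, and at most 0.254% in the other 12. Pecam1, an adhesion molecule of endothelium and of some leukocytes, separated the libraries at 20 CPM. It was at 37.0 to 79.5 CPM in 6 libraries, called Pecam1-high here, and at 2.62 to 8.06 CPM in 9, called Pecam1-low. The values nearest the threshold were 37.0 CPM in knockout-label female replicate 1 and 8.06 CPM in wild-type-label male replicate 2. The Pecam1-high libraries are replicates 1 and 2 of both knockout-label groups and replicate 1 of both wild-type-label groups. This split was made from measured values, so what follows it is a description without a test.

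The summed level of the 34 members was high where Pecam1 was high. It was 163, 308, 46.2 and 42.8 CPM in the knockout-label females and 145, 225, 48.3 and 50.4 CPM in the knockout-label males, in the order of the replicates. In the wild-type-label libraries the females held 229, 58.3 and 71.1 CPM and the males 300.0, 116, 40.6 and 59.0 CPM. The 6 Pecam1-high libraries thus spanned 145 to 308 CPM and the 9 Pecam1-low ones 40.6 to 116 CPM, without overlap, and the means differed 3.86-fold. The members took 0.0155 to 0.0340% of all counts in the first and 0.00350 to 0.0112% in the second. Wild-type-label male replicate 2, the Pecam1-low library with the most Pecam1, was the highest of the 9 for 23 of the 34 members.

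Of the 32 tested members, 21 had every Pecam1-high library above every Pecam1-low one, and 0 had the reverse. Among all 17455 tested genes this held for 13.6% (2367 genes), and 188 genes were separated the other way. The members' ratio of means, on the log2 scale, had a median of 2.25 and ran from -0.48 for Cd3e to 3.01 for Lyve1, against a median of -0.02 over all tested genes. With wild-type-label male replicate 2 left out, 25 members were separated, beside 2549 of 17455 genes. Leaving out the 3 libraries that hold reads of both sexes also gave 25, beside 2778 genes. Scaling by counts of cardiomyocyte markers gave 17, beside 2439 genes.

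**Figure D1:**
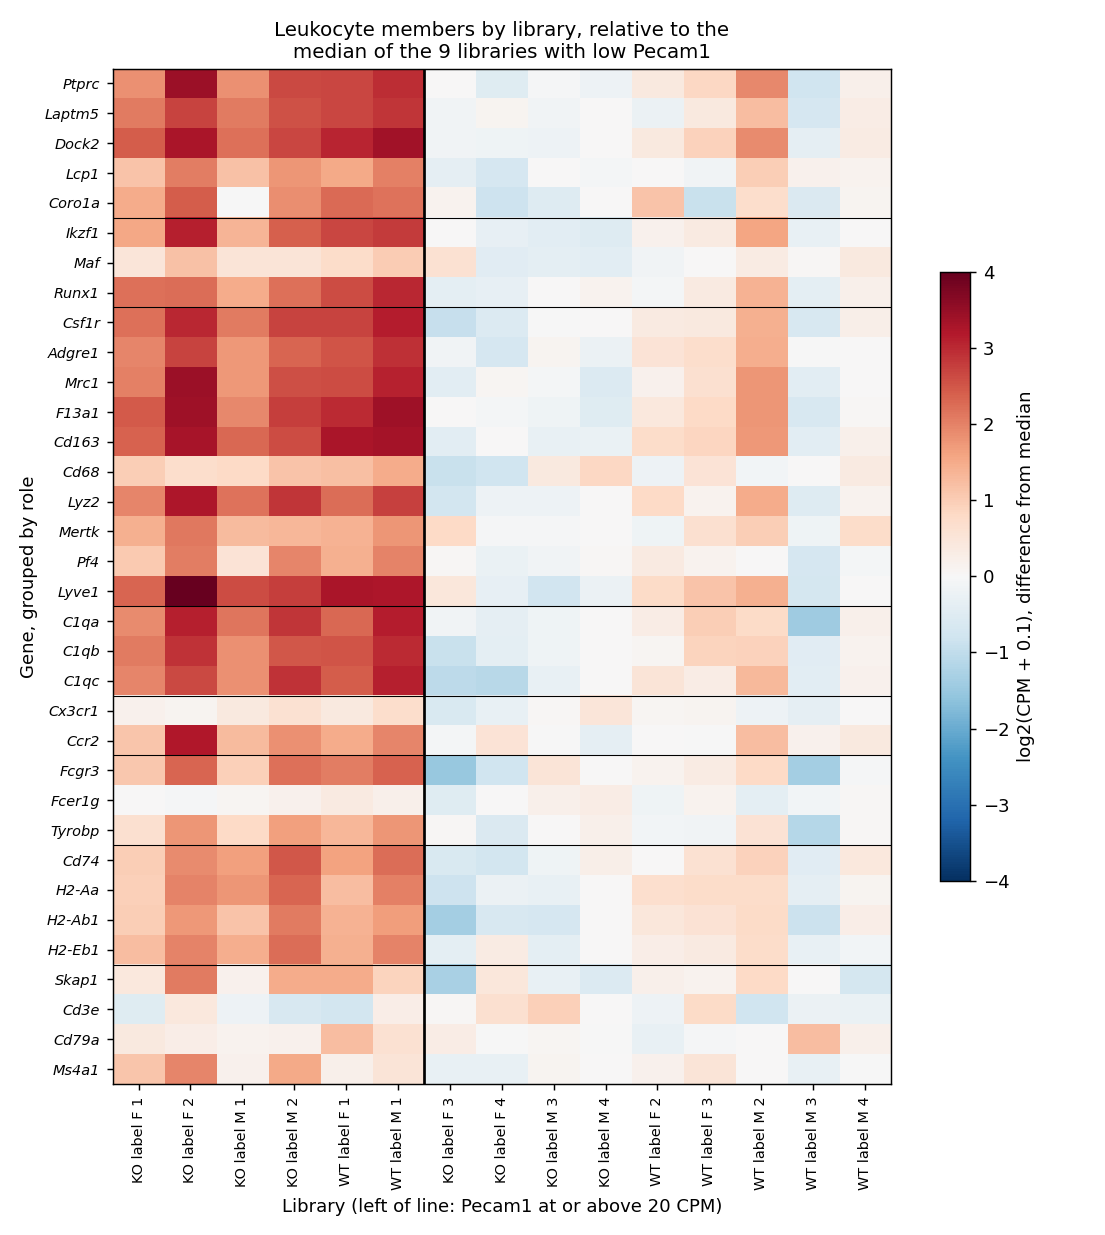
Level of each of the 34 members (rows, grouped by role) in each of the 15 libraries (columns), as the difference of log2(CPM + 0.1) from the member's median over the 9 Pecam1-low libraries, with red higher and blue lower. The 6 columns left of the line, the Pecam1-high libraries, are red for most rows, Fcer1g and Cx3cr1 stay pale throughout, and wild-type-label male replicate 2 is the reddest column on the right.

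Among general leukocyte genes of signalling and the cytoskeleton, 3 of 5 were separated. Ptprc (chr1:138062861-138175708, minus strand) encodes CD45, the phosphatase on the surface of nearly all leukocytes. It read 4.49, 13.7, 1.18 and 0.805 CPM in the knockout-label females and 4.41, 7.84, 1.13 and 1.01 CPM in the knockout-label males. In the wild-type-label libraries the females held 8.04, 1.56 and 2.16 CPM and the males 9.72, 4.74, 0.637 and 1.37 CPM. Replicate 2 of the last group, at 4.74 CPM, lay above the lowest Pecam1-high library at 4.41 CPM, and this 1 overlap kept Ptprc out of the 21. The means of the 2 sets differed 4.95-fold. Laptm5 (chr4:130913125-130936141, plus strand), a lysosomal protein that lowers antigen receptor levels, was at 2.30 to 4.0 CPM (median 3.38) in the Pecam1-high libraries and 0.259 to 1.23 CPM (median 0.4664) in the Pecam1-low libraries, a 5.81-fold difference of means. Dock2 (chr11:34226815-34783892, minus strand), which activates Rac in migrating leukocytes, was at 9.61 to 21.7 against 1.56 to 7.73 CPM. Lcp1 (chr14:75131101-75230842, plus strand), the actin bundler L-plastin, was at 6.49 to 12.0 against 1.76 to 5.79 CPM, with a smaller ratio of 3.04. Both were separated. Coro1a (chr7:126699773-126707787, minus strand), an actin regulator of leukocytes, had only 2 to 76 reads a library and overlapped, since knockout-label male replicate 1 held 0.150 CPM while 5 Pecam1-low libraries held more.

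The transcription factors differed among themselves. Ikzf1 (chr11:11685003-11772926, plus strand), the Ikaros factor of blood cell development, was 4.99-fold higher in the mean of the Pecam1-high libraries, at 2.43 to 8.42 against 0.598 to 2.89 CPM, and only wild-type-label male replicate 2 overlapped. Runx1 (chr16:92601466-92826149, minus strand), which directs blood stem cell formation and is also made outside leukocytes, was 4.54-fold higher and was separated, at 9.68 to 28.6 against 2.57 to 9.13 CPM. Maf (chr8:115682942-115707794, minus strand), a factor of tissue macrophages and of several other cells, differed only 1.67-fold. Its values of 7.07, 11.5, 7.79 and 3.69 CPM in the knockout-label females show the overlap, as replicate 3, a Pecam1-low library, exceeded replicate 1.

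Of the 10 receptors and products of macrophages 8 were separated. Csf1r, the receptor for colony stimulating factor on which macrophages depend, read 9.12, 15.9, 0.948 and 1.25 CPM in the knockout-label females and 8.22, 12.8, 1.86 and 1.89 CPM in the knockout-label males. It read 12.8, 2.44 and 2.5 CPM in the wild-type-label females and 17.3, 5.24, 1.18 and 2.25 CPM in the wild-type-label males. In every group the Pecam1-high libraries stood above the others, and the means differed 5.84-fold. Adgre1 (chr17:57358691-57483527, plus strand), which encodes the macrophage surface protein F4/80, was at 3.92 to 9.06 CPM (median 6.37) in the Pecam1-high libraries and 0.657 to 3.23 CPM (median 1.10) in the Pecam1-low libraries. The scavenger receptor Cd163 (chr6:124304656-124330527, plus strand), which takes up haemoglobin bound to haptoglobin, was 6.27-fold higher at 2.92 to 5.95 against 0.354 to 1.94 CPM.

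The remaining genes of the group included the one with the most reads, F13a1, and those with the smallest ratios. F13a1 (chr13:36867178-37050244, minus strand), the coagulation factor subunit made by resident macrophages, was at 19.8 to 54.7 CPM (median 38.3) in the Pecam1-high libraries and 3.25 to 17.6 CPM (median 5.12) in the Pecam1-low libraries. Mrc1 (chr2:14229392-14332057, plus strand), the mannose receptor CD206, was at 13.6 to 43.7 against 2.70 to 13.9 CPM, where wild-type-label male replicate 2 at 13.9 CPM passed knockout-label male replicate 1 at 13.6 CPM. Lyz2 (chr10:117277331-117282321, minus strand), the lysozyme of myeloid cells, was 5.25-fold higher. Its near-identical neighbour Lyz1 held 44 reads against 5785 for Lyz2, so reads shared between the pair are uncertain. Lyve1 (chr7:110850607-110863239, minus strand), a hyaluronan receptor of vessel-associated macrophages and of lymphatic vessels, had the highest ratio among the members, 8.05, at 2.26 to 8.10 against 0.173 to 1.16 CPM.

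Pf4 (chr5:90772435-90773383, plus strand), a chemokine of platelets and macrophages, was separated on few reads, 218 over all libraries, with a ratio of 5.41. Mertk (chr2:128698956-128802894, plus strand), the receptor by which macrophages take up dying cells, differed 2.34-fold, at 9.72 to 17.8 against 3.55 to 8.11 CPM. Cd68 (chr11:69664213-69666153, minus strand), a lysosomal glycoprotein, differed 2.05-fold, at 1.36 to 2.40 against 0.384 to 1.49 CPM. Cd68 begins 783 bases past the end of Eif4a1, a translation factor gene on the same strand with 19983 reads against 1115 for Cd68, and the part of such reads in its level was not tested.

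All 3 C1q chain genes, which lie side by side within 18.7 kb of chromosome 4, were separated and had closely similar profiles. C1qa (chr4:136895917-136898803, minus strand) was at 2.30 to 5.59 CPM (median 3.86) in the Pecam1-high libraries and 0.141 to 1.18 CPM (median 0.547) in the Pecam1-low libraries. C1qb (chr4:136880129-136886187, minus strand) was at 2.58 to 5.89 against 0.307 to 1.30 CPM and C1qc (chr4:136889804-136893065, minus strand) at 1.98 to 4.96 against 0.170 to 1.33 CPM. The ratios were 6.42, 5.86 and 6.22. All 3 were highest in wild-type-label male replicate 1. The summed C1q level divided by Csf1r stayed between 0.692 and 1.24 in the 15 libraries, with medians of 0.896 in the Pecam1-high and 0.859 in the Pecam1-low libraries, so C1q and Csf1r differed between libraries nearly in step.

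Antigen presentation genes had smaller ratios than C1q and another highest library. The 4 members are Cd74, the invariant chain that escorts MHC class II molecules, and the class II chains H2-Aa (chr17:34282744-34287823, minus strand), H2-Ab1 (chr17:34257689-34269419, plus strand) and H2-Eb1 (chr17:34305867-34316674, plus strand), the last 3 within 59.0 kb of chromosome 17. Cd74 read 2.73, 5.23, 0.845 and 0.763 CPM in the knockout-label females and 4.37, 7.89, 1.16 and 1.58 CPM in the knockout-label males. It read 4.27, 1.34 and 2.11 CPM in the wild-type-label females and 6.65, 2.63, 0.943 and 1.82 CPM in the wild-type-label males. All 4 members were separated, with ratios of 3.27 for H2-Ab1 to 3.66 for H2-Eb1, and all 4 were highest in knockout-label male replicate 2. H2-Aa was at 1.03 to 2.88 against 0.231 to 0.884 CPM. The summed class II level per Csf1r was 0.661 and 0.720 in the Pecam1-high knockout-label females, 1.08 and 1.22 in the knockout-label males, 0.658 in the wild-type-label female and 0.738 in the wild-type-label male. In the Pecam1-low libraries it ran from 1.005, in wild-type-label male replicate 2, to 1.77, with a median of 1.58. Both Pecam1-high knockout-label males therefore lie above the other 4 Pecam1-high libraries, a difference seen in few libraries and not tested. The Pecam1-low knockout-label males did not repeat it, at 1.15 in replicate 3 and 1.60 in replicate 4, beside the median of 1.58.

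Receptors for chemokines and for antibody behaved unevenly. Ccr2 (chr9:124101950-124113557, plus strand), which marks macrophages derived from blood monocytes, was at 0.364 to 1.86 against 0.0656 to 0.403 CPM, with its highest value in knockout-label female replicate 2. Cx3cr1 (chr9:119901616-120069879, minus strand), the fractalkine receptor of resident myeloid cells, hardly followed Pecam1. It was at 6.90 to 10.5 CPM (median 8.38) in the Pecam1-high libraries and 4.17 to 9.07 CPM (median 6.43) in the Pecam1-low libraries, a ratio of 1.37. The counted span of Cx3cr1 is 168264 bases and overlaps 5 genes on the other strand, among them Wdr48, a deubiquitinase cofactor gene with 28682 reads against 6346 for Cx3cr1. The kit was directional, and the name of the count table carries an unexplained abbreviation that may stand for strand-specific counting. The labels do not state how reads of such pairs were assigned. In another such pair, Fam196b, which lies within Dock2 on the other strand, held 23 reads against 6430 for Dock2. The part of Wdr48 reads in the level of Cx3cr1 was not tested. The ratio of Cx3cr1 to Wdr48 spanned 3.33-fold over the libraries. Fcgr3 (chr1:171051174-171064935, minus strand), the low affinity IgG receptor, was 4.79-fold higher, at 0.748 to 2.15 against 0.0512 to 0.664 CPM. Tyrobp (chr7:30413760-30417585, plus strand), the adaptor DAP12 of activating receptors, was 3.77-fold higher, at 0.323 to 0.833 against 0.0236 to 0.308 CPM. Both were separated, but Tyrobp only narrowly and on few reads. Its nearest values were 16 reads in knockout-label female replicate 1 and 13 in wild-type-label male replicate 2.

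Fcer1g (chr1:171229572-171234365, minus strand), the gamma chain that passes on signals of Fc receptors, stood apart from the receptors and adaptors it works with. It read 2.73, 2.61, 1.90 and 2.71 CPM in the knockout-label females, 2.88, 3.04, 3.15 and 3.35 CPM in the knockout-label males, 3.53, 2.40 and 3.01 CPM in the wild-type-label females and 3.12, 2.06, 2.52 and 2.82 CPM in the wild-type-label males. Pecam1-high and Pecam1-low libraries were interleaved, and the means differed 1.12-fold.

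**Figure D2:**
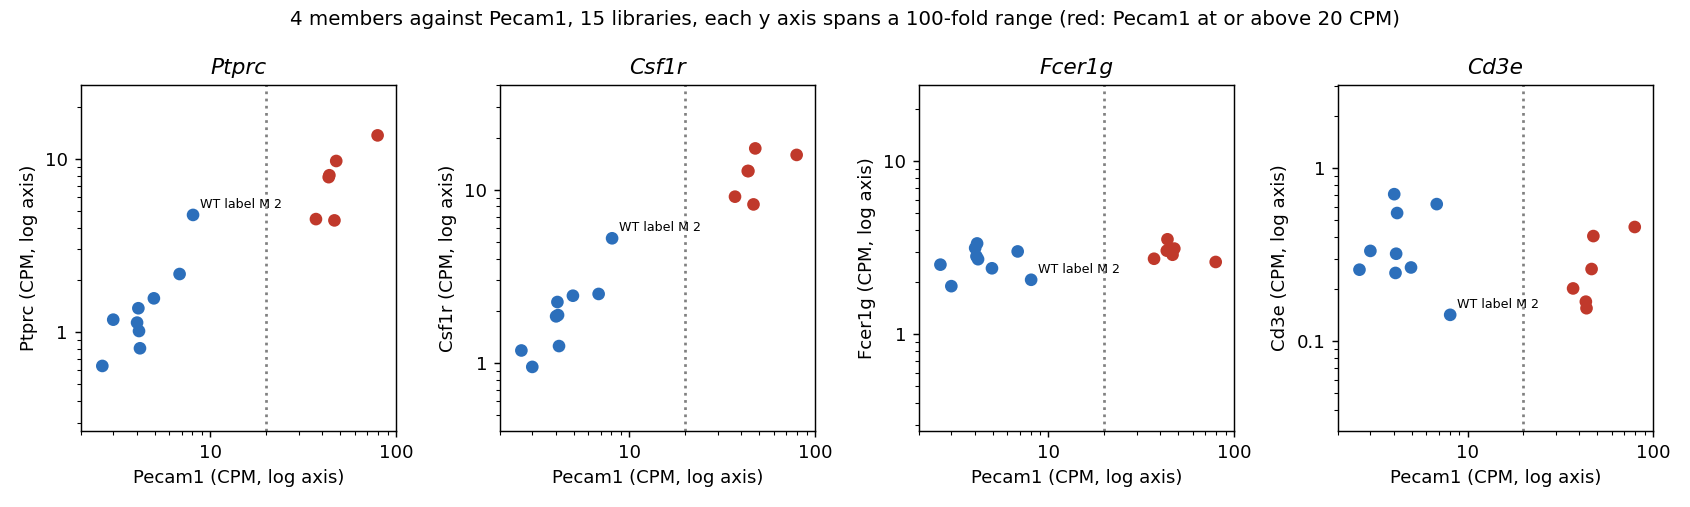
Level of Ptprc, Csf1r, Fcer1g and Cd3e (vertical, CPM, log axis, each spanning a 100-fold range) against Pecam1 (horizontal, CPM, log axis) in the 15 libraries, with Pecam1-high libraries red, Pecam1-low libraries blue and the dotted line at 20 CPM. Ptprc and Csf1r climb with Pecam1, while Fcer1g stays within 1.90 to 3.53 CPM and Cd3e is no higher on the right. Wild-type-label male replicate 2 lies between the sets for Csf1r and just inside the Pecam1-high range for Ptprc.

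Lymphocyte genes were scarce, and 0 of the 4 were separated. Skap1 (chr11:96464593-96759130, plus strand), a T cell adaptor, was at 0.598 to 2.53 against 0.154 to 0.972 CPM, a 2.67-fold difference of means with 3 Pecam1-low libraries above the lowest Pecam1-high one. Cd3e (chr9:44998740-45009627, minus strand), a chain of the T cell receptor complex, went slightly the other way at 0.155 to 0.458 against 0.142 to 0.708 CPM. Its pooled reads were 89 in the Pecam1-high and 208 in the Pecam1-low libraries, a ratio of 0.759 per library size with a 95% Poisson interval of 0.585 to 0.978, which covers counting error only. Of 3 further chains of that complex, Cd3d at 0 to 0.0654 CPM and Cd3g at 0 to 0.212 CPM were at or near 0 in all libraries. The third, the zeta chain Cd247, was separated at 1.5 to 2.34 against 0.114 to 0.771 CPM, a 4.80-fold difference of means. The B cell gene Ms4a1 (chr19:11249675-11266241, minus strand), which encodes CD20, had 57 reads against 13, a ratio of 7.78 with an interval of 4.21 to 15.5 for counting error only. Replicate 2 of the knockout-label females and males held 23 and 19 of the 57. Knockout-label male replicate 1 and wild-type-label female replicate 1 held 1 each, fewer than the 4 of Pecam1-low wild-type-label female replicate 3. Ms4a1 was at 0 in 3 libraries. It lies wholly within 4930526L06Rik, a gene on the other strand with 101 reads. Cd79a (chr7:24897381-24902197, plus strand), part of the B cell receptor, had 21 reads against 22, a ratio of 1.69 with an interval of 0.886 to 3.23, so no difference was detectable at this depth.

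**Figure D3:**
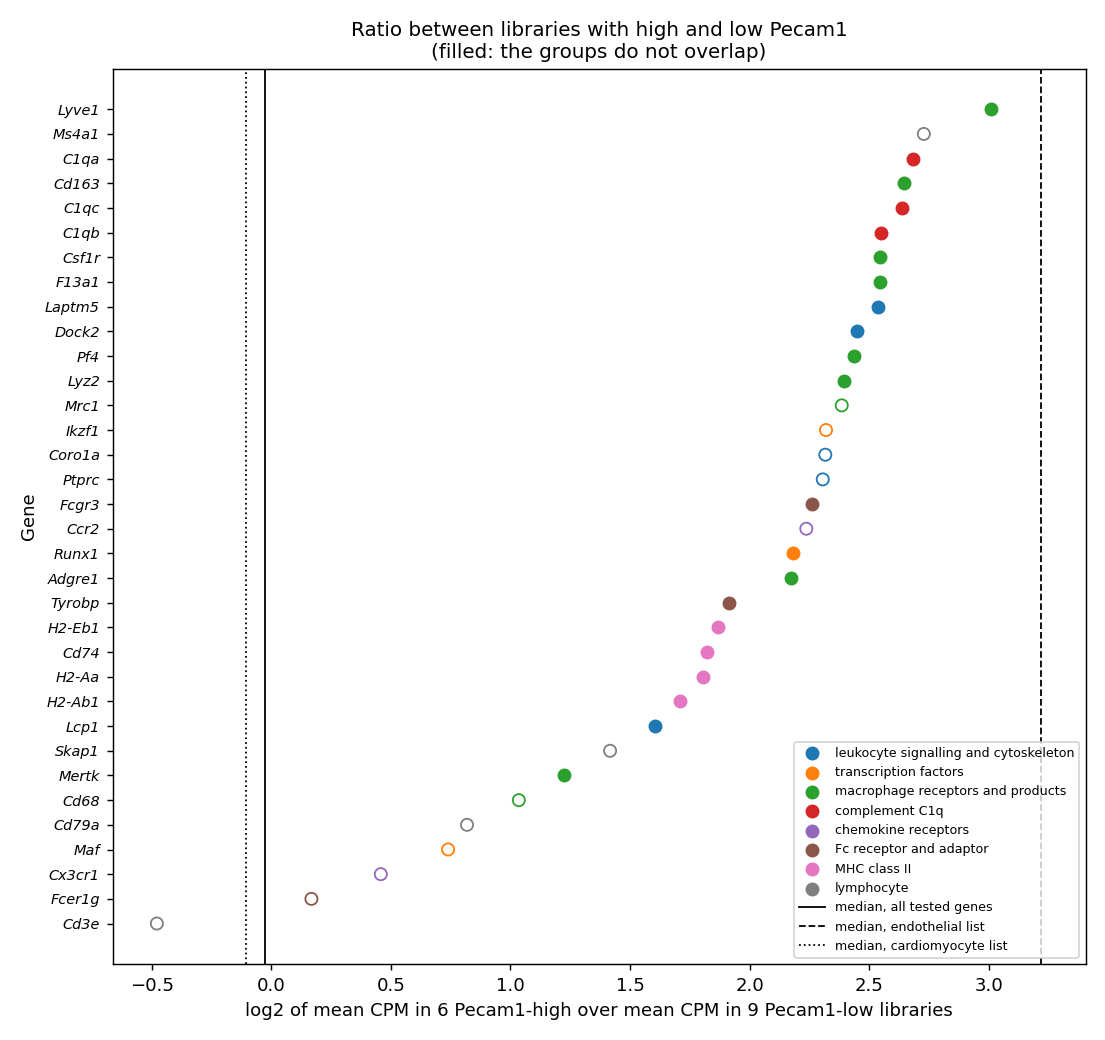
Log2 ratio of each member's mean CPM in the 6 Pecam1-high libraries over its mean in the 9 Pecam1-low libraries, coloured by role, with filled points where the sets do not overlap and open points where they do. Lines mark the medians of all tested genes (-0.02), of 12 endothelial markers with Pecam1 included (3.22) and of 10 cardiomyocyte markers (-0.11). Most members lie between 1.5 and 3.

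Levels of different members can be compared only per length, here as mean CPM in the Pecam1-high libraries per kb of the counted span, introns included. On that scale Lyz2 led at 2.71 CPM per kb, followed by C1qa at 1.37, C1qc at 1.01, Cd68 at 0.925 and C1qb at 0.693. Csf1r was at 0.402 and Mrc1 at 0.257. Long genes were lower, with Dock2 at 0.0281 and Skap1 at 0.00463. Introns made up 24.0 to 97.9% of the spans, with a median of 81.7%, so this order depends on nuclear RNA of introns as well as exons. No member overlapped another gene on its own strand, and 12 overlapped one on the other strand.

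Markers of endothelium, fibroblasts and epicardium were higher in the same libraries, those of some other cell types less uniformly or not at all. Of 12 endothelial markers 12 were separated, with a summed level of 371 to 777 CPM in the Pecam1-high and 26.1 to 87.5 CPM in the Pecam1-low libraries. Pecam1 is in that list and in its sum, and since it made the split its own separation was fixed in advance. Of 12 fibroblast markers 11 were, at 789 to 2076 against 74.3 to 280 CPM in sum. No marker of either list was at 0 in any library. All 6 epicardial markers were separated. Erythroid markers were separated in 4 of 5 tested, with a sum of 25.9 to 66.4 against 5.74 to 17.9 CPM. Of 8 mural cell markers 5 were higher and 1 lower without overlap, and their sum was 548 to 659 against 581 to 776 CPM. Of 3 tested Schwann cell markers 0 were separated. The members' sum divided by Pecam1 was 3.11 to 6.30 in the Pecam1-high and 10.2 to 15.5 in the Pecam1-low libraries. The split on Pecam1 itself favours this direction, so nothing is concluded from it. Of the 10 cardiomyocyte markers 0 were higher and 1 was lower without overlap, and their sum was 47667 to 74189 against 61709 to 78521 CPM. The part of these other cell types in the members' levels was not tested.

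A wider list of 122 leukocyte genes outside the members, of which 81 were tested, showed the same split in 45, none in reverse, with a median log2 ratio of 2.18. By cell type the separated genes were 13 of 25 for macrophages, 2 of 7 for T and NK cells, 4 of 8 for B cells and 17 of 25 for other leukocyte genes. Those with the most reads often did not follow Pecam1. Rbpj, the effector of Notch signalling found in most cells, was at 110.4 to 138 against 91.2 to 129 CPM. Syk, a kinase downstream of Fc receptors, was at 66.2 to 91.4 against 62.8 to 111 CPM, and Ctsb, a lysosomal protease, at 57.3 to 81.1 against 51.5 to 71.0 CPM. In contrast Elmo1, a partner of Dock proteins, was 4.63-fold higher, at 72.3 to 145 against 13.7 to 45.4 CPM. Ebf1, a B cell factor also made in fibroblasts and pericytes, was 8.55-fold higher, at 146 to 262 against 11.8 to 54.7 CPM.

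Between the genotype labels, the question was whether leukocyte transcripts differed with Pgr genotype in either sex, and no member passed. The summed level was 140 ± 125 CPM (SD, n = 4) in the knockout-label and 120 ± 95.2 CPM (n = 3) in the wild-type-label females. In males it was 117 ± 84.9 CPM (n = 4) and 129 ± 119 CPM (n = 4). The SD was close to the mean in each group, and every group mixed Pecam1-high and Pecam1-low libraries. Pecam1-high libraries were 2 of 4 knockout-label and 1 of 3 wild-type-label females, and 2 of 4 knockout-label and 1 of 4 wild-type-label males.

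**Figure D4:**
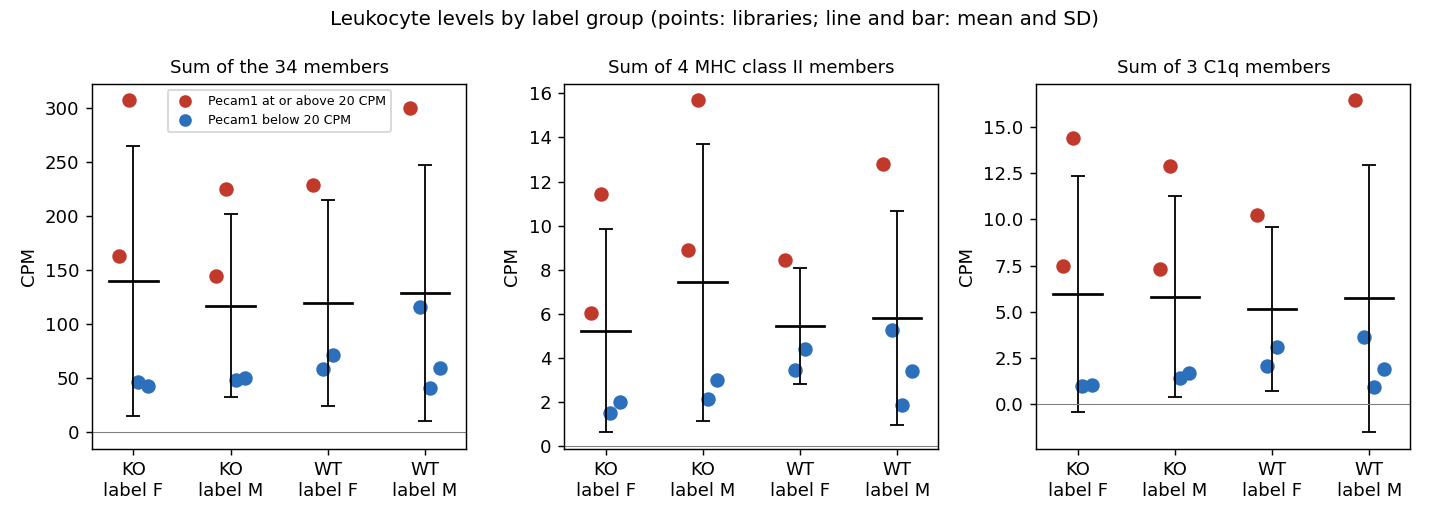
Summed CPM of the 34 members, of the 4 MHC class II members and of the 3 C1q members in each library, by label group (KO knockout, WT wild type, F female, M male), with Pecam1-high libraries red and Pecam1-low libraries blue, and with the mean as a line and 1 SD as a bar. Within every group the red points stand above the blue ones, and the group means lie well inside each other's SD.

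The fit used edgeR's quasi-likelihood test with Benjamini-Hochberg adjustment over 17455 genes and a threshold of 0.05. In females 0 of 32 tested members were called between the labels, where 0% of all genes were, and 0 members but 303 genes had an unadjusted p below 0.05. In males 0 members were called against 0.0115% of all genes (2 genes), with 0 members and 247 genes below 0.05 unadjusted. DESeq2 and limma also called 0 members in both. Log2 fold changes, knockout label minus wild-type label, had a median of 0.19 over the members in females, 23 positive and 9 negative, and of 0.01 in males, 16 and 16. The medians over all genes were 0.03 and 0.02. Many members were high and low in the same libraries, so counts of signs or of p-values over members, here and below, are not counts of independent results.

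The errors show how little these libraries could resolve. Ptprc had a log2 fold change of 0.37 ± 1.13 (SE) in females and -0.20 ± 1.04 in males. Csf1r had 0.21 ± 1.15 and -0.07 ± 1.06, Mrc1 0.50 ± 1.12 and -0.34 ± 1.03, and C1qa 0.39 ± 1.21 and 0.17 ± 1.11. For the class II genes the values were -0.10 ± 0.85 and 0.31 ± 0.78 for Cd74 and -0.22 ± 0.88 and 0.30 ± 0.81 for H2-Ab1. An SE near 1 leaves room for differences of several fold in either direction. Members that hardly followed Pecam1 were measured more tightly, with Fcer1g at -0.26 ± 0.19 in females and 0.24 ± 0.18 in males and Cx3cr1 at -0.32 ± 0.25 and 0.30 ± 0.23. Ccr2 had the largest female value, 1.44 ± 1.08, and its 4 knockout-label female libraries read 0.364, 1.86, 0.102 and 0.212 CPM.

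The difference between the female and male label effects was called in 0 members and in 0% of all genes, with 0 members and 435 genes below 0.05 unadjusted. Female minus male under the knockout label was called in 0 members against 0.0229% of all genes (4 genes), and under the wild-type label in 0 members against 0%. Unadjusted, 1 member, the chemokine receptor gene Cx3cr1, lay below 0.05 under the knockout label, at -0.52 ± 0.24 (adjusted p = 0.757 by edgeR), and 1112 genes did. Its values were 7.30, 6.90, 4.17 and 5.26 CPM in the females and 8.37, 9.77, 6.70 and 9.07 CPM in the males. The ranges overlapped, with male replicate 3 at 6.70 CPM below female replicates 1 and 2, while among libraries of the same replicate number the female was lower in 4 of 4. With the replicate number as a block the adjusted p was 0.285 by edgeR and the gene was not called. Under the wild-type label 0 members and 364 genes lay below 0.05 unadjusted. DESeq2 and limma called 0 members in all 3 of these comparisons. These comparisons share libraries with each other and with those between labels.

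With a term for Pecam1 at or above 20 CPM, the standard errors were smaller and most members had a negative estimate, lower under the knockout label, though 0 passed. The members' median log2 fold change was -0.40 in females, 4 positive and 28 negative, and -0.58 in males, also 4 and 28, against medians of -0.00 and -0.02 over all genes. Among the lowest in males were Dock2 at -1.03 ± 0.37 and Cd163 at -1.10 ± 0.39. Ikzf1 at -1.12 ± 0.42 and Mrc1 at -1.06 ± 0.43 were others. The 4 positive in males were Cd3e at 0.43, Cx3cr1 at 0.23, Fcer1g at 0.21 and Cd68 at 0.14. In females Csf1r was at -0.57 ± 0.40 and H2-Ab1, the lowest, at -0.95 ± 0.48. The 4 positive in females were Ccr2 at 0.90, Mertk at 0.26, Maf at 0.19 and Cd3e at 0.17. The term has only 2 levels, so differences in Pecam1 among the Pecam1-high or among the Pecam1-low libraries remain in these values. Unadjusted, 2 members in females and 10 in males had p below 0.05, where 514 and 506 of all 17455 genes did, and the lowest adjusted p of a member in males was 0.989 by edgeR. As members vary together, these counts and those of negative signs rest on the few libraries of each group. Wild-type-label male replicate 2 carried much of the male value, since without it, in a fit added after seeing the data, the male median was -0.28 and 1 member lay below 0.05 unadjusted, where 332 of 17477 genes did. In that fit the female median was -0.46, with 8 members and 596 genes below 0.05 unadjusted, and 0 members were called in either sex.

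**Figure D5:**
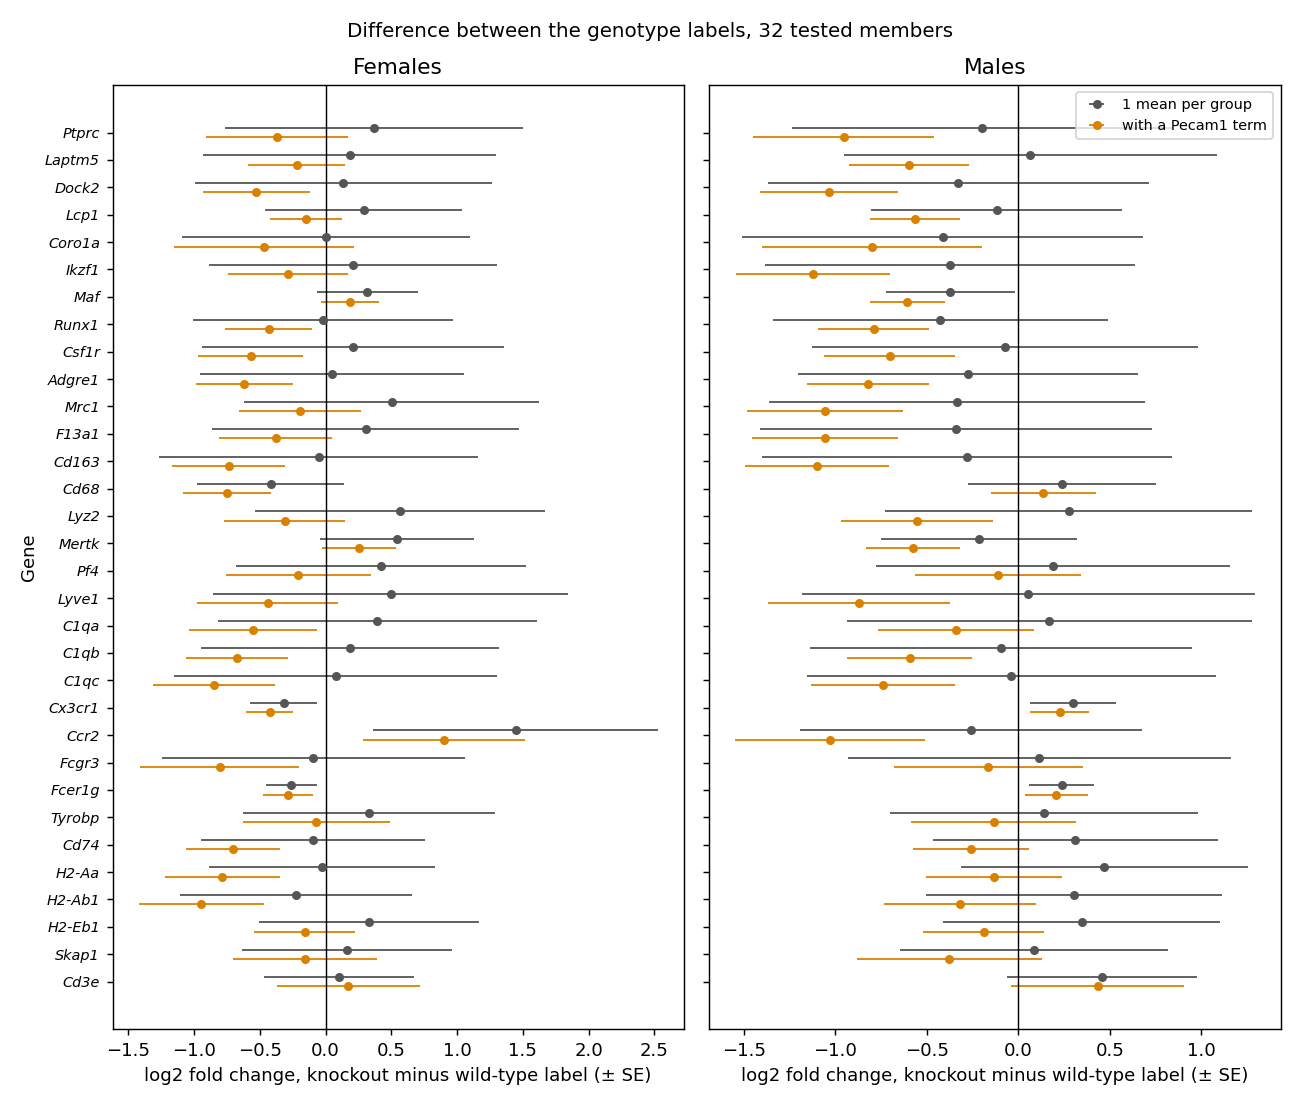
Log2 fold change between the genotype labels (knockout minus wild type, ± SE) of the 32 tested members in females (left) and males (right), from the fit with 1 mean per group (grey) and with a term for Pecam1 (orange). Grey bars of most members cross 0 widely, orange points lie mostly left of 0 with shorter bars, and 0 members pass the threshold in either fit.

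Within the Pecam1-low libraries alone, where 31 members were tested, the median was -0.89 in females, 28 of 31 negative, and -0.62 in males, 25 of 31 negative. In each sex 0 members and 0 of 16652 genes were called, and the medians over all genes were 0.01 and -0.02. Pecam1 itself still differed there, at 3.00 and 4.17 CPM in the knockout-label against 4.96 and 6.82 CPM in the wild-type-label females. In males it was at 4.03 and 4.13 against 8.06, 2.62 and 4.09 CPM. Its part in these medians was not tested. Within the Pecam1-high libraries alone the members' median was 0.02 in females and -0.52 in males. Each of these 2 values sets 2 libraries against 1, which is assumed to vary like the others, so they carry little weight. In the fit of all libraries without the Pecam1 term, 12 of 12 endothelial markers had a positive label difference in each sex. Their medians, Pecam1 included, were 0.68 in females and 0.57 in males. The members' medians in that same fit were 0.19, with 23 of 32 positive, and 0.01, with 16 of 32 positive. In both sexes the knockout-label group held the larger share of Pecam1-high libraries, and the part of this in these signs was not tested. The members' sign depended on single libraries. Leaving out knockout-label female replicate 2 gave a female median of -0.63, and leaving out wild-type-label female replicate 1 gave 1.20. The male median ran from -0.61 without knockout-label male replicate 2 to 0.82 without wild-type-label male replicate 1. When the 3 libraries that hold reads of both sexes were left out, all 32 members were negative in females, with a median of -0.96, and 0 were called. Since members vary together, these 32 signs are not separate results.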

How the data were processed

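The deposited table holds raw counts per gene for 15 libraries, which the authors made with STAR 2.5.3a and featureCounts 1.5.0 on GRCm38 (mm10), per the submitters' processing notes. Gene lengths in it equal whole spans in 100% of 55536 genes, so counts cover introns. The table's name may hold a strand setting, which the labels do not put into words. A smaller table of 16610 genes has identical counts.

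The members, their roles and the other lists were chosen with earlier results of these data known. All 34 members are named, and of the other leukocyte lists at most 4 genes each with the highest mean level. Cd3d, Cd3g, Cd247 beside them, the lymphatic genes and the neighbours of members were chosen after their values were seen. A withheld item is not reported here.

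Counts were analysed in R 4.3.3 with edgeR 4.0.16: filterByExpr left 17455 genes, libraries were scaled by TMM, and a robust quasi-likelihood fit had 1 mean for each of 4 groups over all 15 libraries. The 5 comparisons were the label effect in females and in males, their difference, and female minus male within each label. Calls are at a Benjamini-Hochberg adjusted p under 0.05 over all genes. DESeq2 1.42.0 and limma 3.58.1 (voom) served as alternatives, beside other scalings and filters, a Pecam1 term, subsets of libraries and each library left out. SEs are on the log2 scale. The fit was tested on simulated data with large changes in the better expressed genes and without the Pecam1 split. That test does not bear on the power for these members. Intervals and floors cover counting error only.

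Libraries with the same replicate number were checked as pairs by correlating deviations from group means. The correlations were 0.126 to 0.730 between the male groups, 0.495 to 0.858 between the sexes under the knockout label, 0.276 to 0.891 under the wild-type label and -0.349 to 0.752 between the female groups. Under the wild-type label, female replicates 2 and 3 correlated best with male replicates 3 and 4. Replicate 1 of every group and replicate 2 of both knockout-label groups are Pecam1-high, so shared Pecam1 status enters these correlations. Whether the libraries are paired therefore cannot be told from them.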

Additional observations from a re-analysis of the deposited data

Results flagged for a closer look

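Within a label group or within the Pecam1-low libraries, a library was singled out where the gap to its nearest neighbour was a large part of the group's range (Dixon's 95% limit). Chance does this in about 1 of 20 groups. Of 105 checks in label groups 7 were singled out, and of 8 checks of summed roles in the Pecam1-low libraries 3 were.

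Among the knockout-label females, Ccr2 stood at 1.86 CPM in replicate 2, far above the others, and Fcer1g at 1.90 CPM in replicate 3, below the others. In knockout-label male replicate 2, Coro1a stood at 0.809 CPM and Ms4a1 at 0.248 CPM, both high. In wild-type-label male replicate 1, Pf4 stood at 0.676 CPM, C1qa at 5.59 CPM and C1qb at 5.89 CPM, all high. Apart from Fcer1g, each of these libraries is Pecam1-high, and label groups mix Pecam1-high and Pecam1-low libraries.

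Within the 9 Pecam1-low libraries, wild-type-label male replicate 2 stood above the rest for the sums of signalling and cytoskeleton genes (19.8 CPM), of transcription factors (18.4 CPM) and of macrophage receptors and products (58.3 CPM). It also had the most Pecam1 of the 9, at 8.06 CPM, and reads of the other sex.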

How the results depend on the processing

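In all 27 alternatives to each of the 5 label and sex comparisons, 0 members were called, the fits that left out 1 library each included. The number of members separated between Pecam1-high and Pecam1-low libraries, 21, ran from 17 to 25 over 20 alternatives, and the log2 ratio of the summed level, 1.95, from 1.85 to 2.13. Over all 17455 tested genes the number separated in this direction, 2367, ran from 2265 to 2778. The sign of a member's label or sex difference was kept in 3596 single values and changed in 719, all uncalled. With the replicate number as a block, 0 members were called in each comparison, and the members' medians were 0.11 in females and 0.04 in males. The block changed no member's call, and over all genes it moved the calls of female minus male under the knockout label from 4 to 13. That count was 57 by DESeq2, 10 by limma and 11 with the Pecam1 term. Under the wild-type label the 0 genes became 14 by DESeq2 and 6 by limma. Depth limits Cd79a, Ms4a1, Pf4, Tyrobp, Ccr2, Cd3e and Coro1a most, each with at most 352 reads in all. The libraries with the lowest totals, 24.4 M counts, resolve no level below 0.117 CPM. Genotype labels run against the Pgr reads, and Pecam1 status is unevenly spread over the groups, so directions hold by label only.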

Other observations

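Rarer leukocyte genes outside the members gave values of the same kind. Among mast cell genes, Kit, a receptor that other cells also carry, was at 1.74 to 4.27 against 0.231 to 1.30 CPM in Pecam1-high against Pecam1-low libraries, and Gata2, a factor shared with endothelium, at 1.88 to 3.63 against 0.0768 to 0.617 CPM. Hdc, which makes histamine, was at 0.583 to 0.964 against 0.0756 to 0.445 CPM. Of 5 tested genes 3 did not overlap. Among dendritic cell genes, Ciita, the activator of MHC class II genes, was 3.99-fold higher at 1.12 to 2.28 against 0.153 to 0.617 CPM, beside the 3.27- to 3.66-fold ratios of the class II members. Zbtb46, also made in endothelium, was at 30.3 to 36.5 against 20.7 to 26.4 CPM. Monocyte and granulocyte genes included Ly6c2 at 0.424 to 1.23 against 0.0472 to 0.204 CPM and Itgal, an integrin chain, at 0.8287 to 2.40 against 0.711 to 2.22 CPM. Cd247, a T and NK cell receptor chain, is given above beside Cd3e.

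Lyve1 is shared with lymphatic vessels, and lymphatic endothelial genes are given beside it. Flt4 was 6.43-fold, Pdpn 8.66-fold and Mmrn1 5.19-fold higher in the mean of the Pecam1-high libraries, against 8.05-fold for Lyve1, and these 3 of the 5 tested genes were separated. Reln was 1.42-fold higher in the mean, at 10.5 to 26.3 against 7.30 to 15.1 CPM, which overlap. Prox1, a lymphatic factor also made in cardiomyocytes, was at 137 to 191 against 159 to 187 CPM. The ratio of Lyve1 to Mrc1 was 0.122 to 0.201 in the Pecam1-high and 0.0460 to 0.181 in the Pecam1-low libraries. The part of lymphatic cells in the level of Lyve1 was not tested.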
